A study of Mus musculus with 2 samples.

Results

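Fragments of Malat1 and Neat1, 2 long non-coding RNAs of the nucleus, were followed in the small RNAs of mouse dendritic cells. A fragment was any listed sequence that matched, over its full length and on the sense strand, a GENCODE vM21 transcript of either gene. Of 538100 distinct sequences in all, 2230 met this rule, 1309 in Malat1 and 957 in Neat1, with 36 in common. The cells were bone marrow-derived dendritic cells of C57BL/6 mice, grown for 7 days in RPMI 1640 with 10% FBS plus GM-CSF and IL-4, then given LPS, a bacterial product that activates them. Both groups share this culture and stimulation, and the sources used here do not give its dose or duration. The nuclear group is RNA from the pellet that contained the nuclei after swelling in a buffer with the detergent NP40 and centrifugation, and the cytoplasmic group is RNA from the cytoplasmic fraction. There was 1 library of each, with 2000019 nuclear and 2041383 cytoplasmic reads of 18 to 39 nt. With 1 library a group no difference has a replicate check, no p-value is given, and intervals cover counting error only.

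Malat1 is an abundant, largely unspliced RNA that gathers in nuclear speckles, bodies rich in splicing factors. RNase P cuts its 3′ end and releases a tRNA-like RNA, mascRNA, which is known to move to the cytoplasm while the long body stays in the nucleus. Neat1 builds paraspeckles, bodies that hold proteins such as Nono and Sfpq. It is made as a short polyadenylated isoform and as a long isoform with the same 5′ region, and RNase P also cuts a tRNA-like RNA from the long isoform's 3′ end.

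Malat1 lies on the minus strand of chromosome 19 (GRCm38, chr19:5795690-5802672), and its longest transcript is an unspliced RNA of 6983 nt. Neat1 lies nearby on the same strand (chr19:5824708-5845478), with a longest transcript of 20771 nt. The results turn on 4 stretches, printed 5′ to 3′ from the GENCODE transcripts with T for the U of RNA. The first 2 are the tRNA-like ends with the 10 bases before them, with the tRNA-like RNA in capitals (chr19:5795924-5795991 for Malat1 and chr19:5824652-5824717 for Neat1). The third is the Malat1 stretch with most cytoplasmic reads (chr19:5798137-5798192), where capitals mark each base at which at least 5 cytoplasmic reads began. The last is a pair of tandem copies in Neat1 (chr19:5840763-5840878), where capitals mark the most abundant Neat1 fragment.
Malat1 3′ end and mascRNA: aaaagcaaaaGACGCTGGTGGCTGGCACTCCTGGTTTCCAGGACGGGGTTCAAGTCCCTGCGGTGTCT
Neat1 3′ end and Gm27702: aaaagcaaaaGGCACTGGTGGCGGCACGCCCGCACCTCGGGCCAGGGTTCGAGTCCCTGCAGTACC
Malat1 stretch: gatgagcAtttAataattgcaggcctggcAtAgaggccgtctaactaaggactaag
Neat1 tandem copies: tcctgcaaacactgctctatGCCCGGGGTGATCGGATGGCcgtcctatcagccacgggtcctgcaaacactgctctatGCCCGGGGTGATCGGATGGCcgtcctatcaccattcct

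The fractions were checked on other RNAs. Fragments of snoRNAs, which work in the nucleolus, were 20.5-fold higher in the nuclear library (95% interval 20.02 to 20.9). Those of snRNAs, also taken as a nuclear marker, were 2.57-fold higher (2.48 to 2.66). Fragments of mitochondrial tRNAs had a nuclear to cytoplasmic ratio of 0.387 (0.362 to 0.414). Without mt-Ts2, which had 150 nuclear and 1621 cytoplasmic reads, that ratio was 0.693 (0.641 to 0.750), and 4 of the 22 mitochondrial tRNAs were higher in the nuclear library. Mitochondrial rRNA had a ratio of 0.870, while mRNA fragments (1.78) and the annotated rRNA fragments (2.78) were higher in the nuclear library. The mRNA class, here and below, takes in every gene type outside the other RNA classes and so not only protein-coding genes. All 7 myeloid and dendritic markers looked for had at least 50 reads, for example Cd74 with 160 nuclear and 196 cytoplasmic reads. Of 6 markers of other bone marrow cells, 4 had no read (Hba-a1, Hbb-bs, Cd3e and Cd79a) and Mir451a had 0 nuclear and 2 cytoplasmic reads. The fibroblast marker Col1a1 had 49 nuclear and 5 cytoplasmic reads, and its part in the results was not tested. In such bulk RNA, fewer cells of a type and less RNA per cell cannot be told apart.

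Both RNAs were far more abundant as fragments in the nuclear library. Malat1 had 2094 reads in the nuclear library and 328 in the cytoplasmic library, which is 1047 against 161 RPM (reads scaled to the library's listed total) and 300 against 47.0 reads per kb of transcript. The ratio of nuclear to cytoplasmic RPM was 6.52 (95% interval 5.80 to 7.34), a log2 ratio of 2.70. Neat1 had 1559 reads in the nuclear library and 96 in the cytoplasmic library, or 779 against 47.0 RPM and 75.1 against 4.62 reads per kb. Its ratio was 16.6 (13.5 to 20.6), a log2 ratio of 4.04. Per length, Malat1 therefore gave the more fragments of the pair in both libraries, while the ratio was the larger for Neat1. The share of all reads that came from either RNA was 0.179% in the nuclear and 0.0206% in the cytoplasmic library.

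The ratios were also taken without fragments that other genes contain. Fragments of no other gene gave 1798 nuclear and 305 cytoplasmic reads for Malat1, a ratio of 6.02 (5.33 to 6.82). For Neat1 they gave 1279 nuclear and 85 cytoplasmic reads, a ratio of 15.4 (12.3 to 19.4). Neat1's ratio was thus 2.55 times that of Malat1 (1.98 to 3.32). This quotient is free of the scaling between the libraries. The shared fragments lay further to the nuclear side, with 296 nuclear and 23 cytoplasmic reads in Malat1 (ratio 13.1, 8.59 to 21.05) and 280 and 11 in Neat1 (ratio 25.98, 14.3 to 52.6). Their gene of origin is not known. They came mainly from repeats, such as a GT repeat near position 19428 of Neat1 and a stretch near position 652 of Malat1 whose leading fragment occurs in 872 other genes. All further values are from fragments of no other gene, with some exceptions. These are the comparison of gene entries, the counts at the 3′ ends and in annotated pieces, and the share of sequences seen once. The closing section on processing and passages that name shared fragments also keep them.

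**Figure D1:**
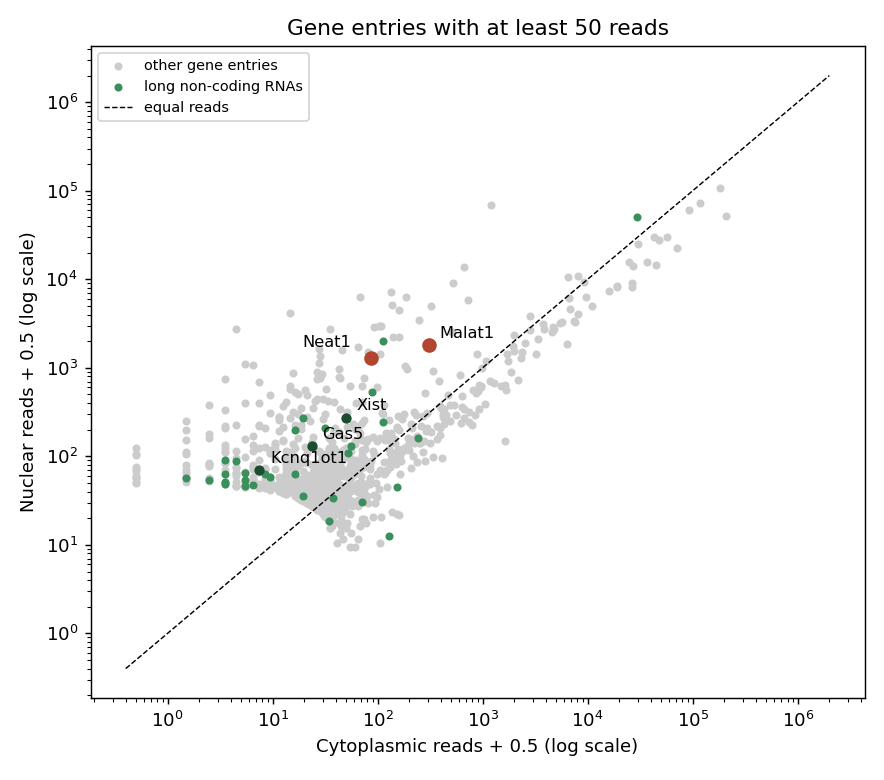
Nuclear reads (y axis) against cytoplasmic reads (x axis) of the 956 gene entries with at least 50 reads, both with 0.5 added and on log scales, with the dashed line at equal reads. Malat1 (1806 nuclear and 305 cytoplasmic reads) and Neat1 (1300 and 86) lie above the line with most long non-coding RNAs.

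Set against all genes measured in the same way, ratios of this kind were common among long non-coding RNAs. When every sequence of the table was assigned to genes, 956 gene entries had at least 50 reads. Of these, 46.3% were at least 2-fold higher and 8.47% at least 2-fold lower in the nuclear library (443 and 81 entries). Of the 35 long non-coding RNA entries, 77.1% were higher and 8.57% lower, and the median log2 ratio was 2.74. Malat1 and Neat1 were both among the higher ones, at rank 21 and rank 9 of the 35 by ratio. The scaling set the split of all entries: TMM factors gave 312 higher and 233 lower, the median of ratios gave 296 and 254, and scaling to the miRNA total gave 647 and 19. These scalings shifted every log2 ratio by -0.72, -0.82 and 0.89, and Malat1 and Neat1 were higher in the nuclear library by more than 2-fold under each of them.

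A list of 12 other long non-coding RNAs with nuclear roles and host transcripts of snoRNAs was set beside the pair. Of these, 6 had at least 50 reads and 3 had none, 5 of the 6 were at least 2-fold higher and 0 lower, and their median log2 ratio was 2.57. Both values are near those of all long non-coding RNA entries above (77.1% higher and a median of 2.74). Xist, which coats the inactive X chromosome, had 273 nuclear and 49 cytoplasmic reads, a ratio of 5.69 (4.18 to 7.87). The ratio of Malat1 was 1.06 times that of Xist (0.746 to 1.48), an interval that holds 1, whereas Neat1's was 2.70 times that of Xist (1.81 to 3.98). Kcnq1ot1, the antisense RNA of an imprinted domain, had 69 nuclear and 7 cytoplasmic reads. Rpph1, the RNA of the RNase P that cuts both 3′ ends, had 26 nuclear and 24 cytoplasmic reads, a ratio of 1.11 (0.610 to 2.01).

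The mRNAs of proteins that reside in the same bodies were also followed. Of 12 speckle and paraspeckle protein mRNAs, 3 had at least 50 reads, 2 of them at least 2-fold higher and 0 lower, beside the 46.3% and 8.47% of all entries. Their median log2 ratio was 1.21, against 0.85 over all entries. Son had 89 nuclear and 39 cytoplasmic reads, Srrm2 139 and 61, and Hnrnpk 34 and 23 (ratio 1.51). Nono and Sfpq, the core paraspeckle proteins, fell short of 50 reads, with 9 nuclear and 11 cytoplasmic reads for Nono and 27 and 6 for Sfpq. The 7 mRNAs of tRNA end processing, among them Elac2, which trims the 3′ end of tRNAs, had 10 nuclear and 6 cytoplasmic reads in all and none was measured.

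No fragment came from inside mascRNA. This part of Malat1 spans positions 6692 to 6749 of the transcript (chr19:5795924-5795981, 58 nt). It had 0 reads in the nuclear and 0 in the cytoplasmic library. The exact 95% interval of its share reached 0.176% of the 2094 nuclear and 1.12% of the 328 cytoplasmic Malat1 reads. A floor of 3 reads in place of each 0 would be 0.143% and 0.915% of them, or 1.5 and 1.47 RPM. The count stayed at 0 when up to 3 nt were removed at the 3′ end of a sequence and when 1 edit was allowed. With 2 edits, 4 sequences with 3 nuclear reads and 1 cytoplasmic read matched, one of them the fragment over its 5′ boundary described next. A mascRNA of full length is longer than the longest sequence listed and would not be seen. Both libraries did hold pieces of other RNAs of about this size, the 22 mitochondrial tRNAs of 59 to 75 nt. Each had between 6 and 1771 reads over the 2 libraries together, with 1203 nuclear and 3171 cytoplasmic reads in all. Not every one was seen in both, since mt-Tr had 0 nuclear and 7 cytoplasmic reads.

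A single nuclear read bridged the RNase P site of Malat1. It held the 2 bases before mascRNA and 19 bases of it, which stand in capitals. It was the only fragment over that site, and at 1 read it gives no ratio. No other read lay wholly inside the 100 nt before mascRNA, positions 6592 to 6691. A sequence with 3 nuclear and 0 cytoplasmic reads reached into them, up to position 6605, which was the last covered base of the body in the nuclear library. In the cytoplasmic library the last was position 6588. The 234 nt after mascRNA had no read in either library.
Malat1 fragment over the RNase P site: aaGACGCTGGTGGCTGGCACT

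Neat1's 3′ end gave a few reads, all nuclear. Its tRNA-like RNA is annotated as Gm27702, a separate 56 nt RNA directly after the last base of Neat1 (chr19:5824652-5824707). A 22 nt fragment that begins at its first base had 3 nuclear and 0 cytoplasmic reads. Another 2 fragments, with 1 nuclear and 0 cytoplasmic reads each, ended exactly at Neat1's last base. Fragments thus ended on either side of the annotated boundary, and no fragment bridged it. At these counts no fold is given.
Gm27702 5′ fragment: ggcactggtggcggcacgcccg
Neat1 3′ terminal fragment, 22 nt: acgtgagcaggaaaaagcaaaa
Neat1 3′ terminal fragment, 24 nt: gaacgtgagcaggaaaaagcaaaa

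Malat1 fragments came from nearly the whole body. In the nuclear library they began in 67 of 70 windows of 100 nt and covered 66.5% of the transcript's bases, and in the cytoplasmic library they began in 50 windows and covered 28.9%. Of 39 windows with at least 20 reads, 36 were at least 2-fold higher in the nuclear library and 0 were lower, which is 92.3% higher. Over the 113 such windows of all long non-coding RNAs, 39 of them in Malat1 and 17 in Neat1, 85.8% were higher and 4.42% lower. Over the 57 windows of other long non-coding RNAs, 78.9% were higher and 8.77% lower, and the difference was not tested. The log2 ratio of the windows had a median of 2.78 and ran between -0.13 and 5.91. The upper end was set by positions 1001 to 1100 and positions 1401 to 1500, each with 29 nuclear and 0 cytoplasmic reads. The window with most nuclear reads was positions 2101 to 2200, with 138 nuclear and 9 cytoplasmic reads (ratio 15.7, 8.01 to 34.95), and it held 7.68% of the nuclear reads.

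**Figure D2:**
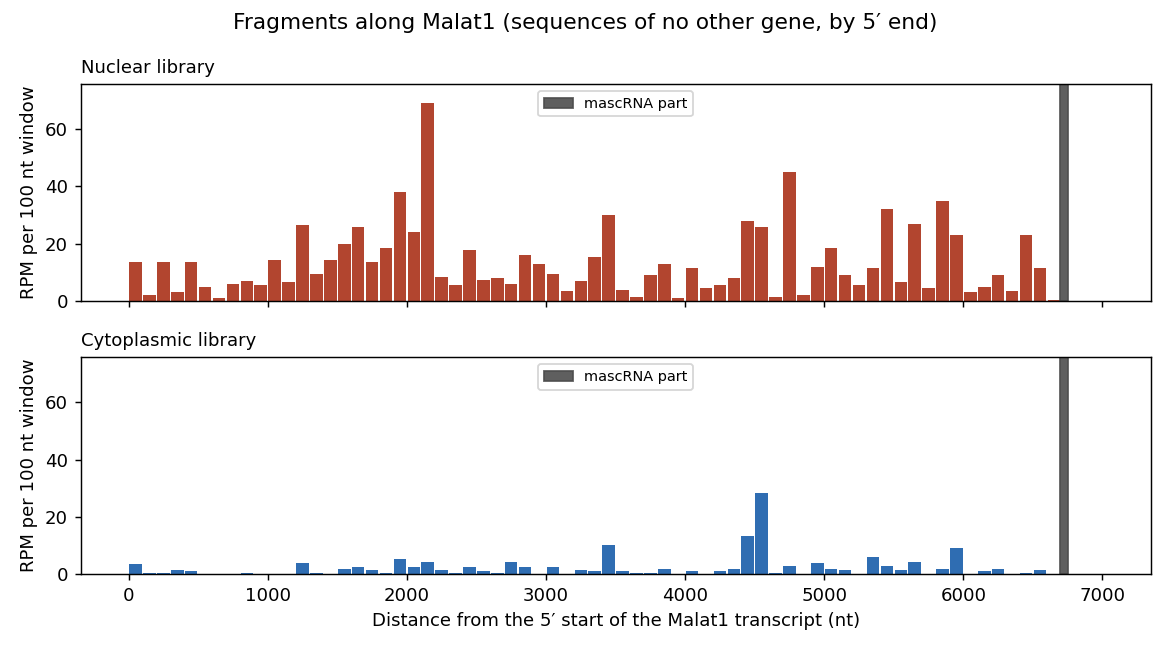
RPM per 100 nt window (y axis, same scale in both panels) by distance from the 5′ start of Malat1 (x axis), nuclear library above and cytoplasmic library below, with mascRNA as a grey bar. Nuclear reads lie along the body with a peak of 69.0 RPM at positions 2101 to 2200, cytoplasmic reads peak at 28.4 RPM at positions 4501 to 4600, and no read begins in mascRNA.

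The 2 libraries had their peaks in different places. Positions 4501 to 4600 had the most cytoplasmic reads, 52 nuclear and 58 cytoplasmic, which is 19.02% of the cytoplasmic reads of Malat1. Its ratio of 0.915 (0.617 to 1.35) did not differ from 1 beyond counting error, and under the scalings above it ran between 0.518 and 1.70. Relative to the rest of the body, with 1746 nuclear and 247 cytoplasmic reads and a ratio of 7.22 (6.31 to 8.28), the window's ratio was 0.127 times as large (0.0836 to 0.193). The window was picked among 70 for its cytoplasmic reads, which favours a low ratio, and the intervals do not cover that choice. The neighbouring window, positions 4401 to 4500, had 56 nuclear and 27 cytoplasmic reads (ratio 2.12, 1.31 to 3.49). By contrast positions 4701 to 4800 had 90 nuclear and 6 cytoplasmic reads (ratio 15.3), and positions 5801 to 5900 had 70 and 4 (ratio 17.9). Also short of the 2-fold call were positions 2701 to 2800, with 12 nuclear and 9 cytoplasmic reads (ratio 1.36, 0.526 to 3.66). The same held for positions 5301 to 5400, with 23 and 12 (ratio 1.96, 0.934 to 4.31).

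The body also differed between its ends. The 5′ side of its midpoint had 906 nuclear and 96 cytoplasmic reads, a ratio of 9.63 (7.80 to 12.02), and the 3′ side 892 and 209, a ratio of 4.36 (3.74 to 5.09). The ratio was 2.21 times larger on the 5′ side (1.70 to 2.90). Without positions 4501 to 4600 the 3′ side had 840 nuclear and 151 cytoplasmic reads and the quotient was 1.70 (1.28 to 2.25).

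Most cytoplasmic reads of that window shared a 5′ end. Fragments that began at position 4510 had 5 nuclear and 38 cytoplasmic reads, a ratio of 0.134 (0.0413 to 0.342), which stayed below 1 under each scaling (0.0760 to 0.249). They were 4 sequences with the same 5′ base, in capitals, and stepwise longer 3′ ends. The 20 nt form had 0 nuclear and 14 cytoplasmic reads, the 21 nt form 4 and 16, the 22 nt form 1 and 7, and the 23 nt form 0 and 1. The 20 nt form was thus at least 4.57-fold lower in the nuclear library, counted against a floor of 3 reads. They lie at chr19:5798141-5798163. Position 4510 was picked as the 5′ end with most cytoplasmic reads, which favours a low ratio, and the interval does not cover that choice.
Malat1 position 4510, 20 nt: Atagaggccgtctaactaag
Malat1 position 4510, 21 nt: Atagaggccgtctaactaagg
Malat1 position 4510, 22 nt: Atagaggccgtctaactaagga
Malat1 position 4510, 23 nt: Atagaggccgtctaactaaggac

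Other 5′ ends a few bases away were split in other ways. Those from position 4512 had 17 nuclear and 16 cytoplasmic reads, and those from position 4488 had 7 and 8. Position 4492 had 3 nuclear and 7 cytoplasmic reads. The leading nuclear 5′ end of the stretch, position 4490, had 25 nuclear reads and 1 cytoplasmic read. Its main fragment, of 18 nt, had 14 nuclear and 0 cytoplasmic reads, a level at least 4.76-fold higher. All 4 positions with at least 5 cytoplasmic reads are an A that follows a C or T in the stretch printed above, whereas position 4490 is a T after a T.
Malat1 position 4490, 18 nt: ttaataattgcaggcctg

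**Figure D3:**
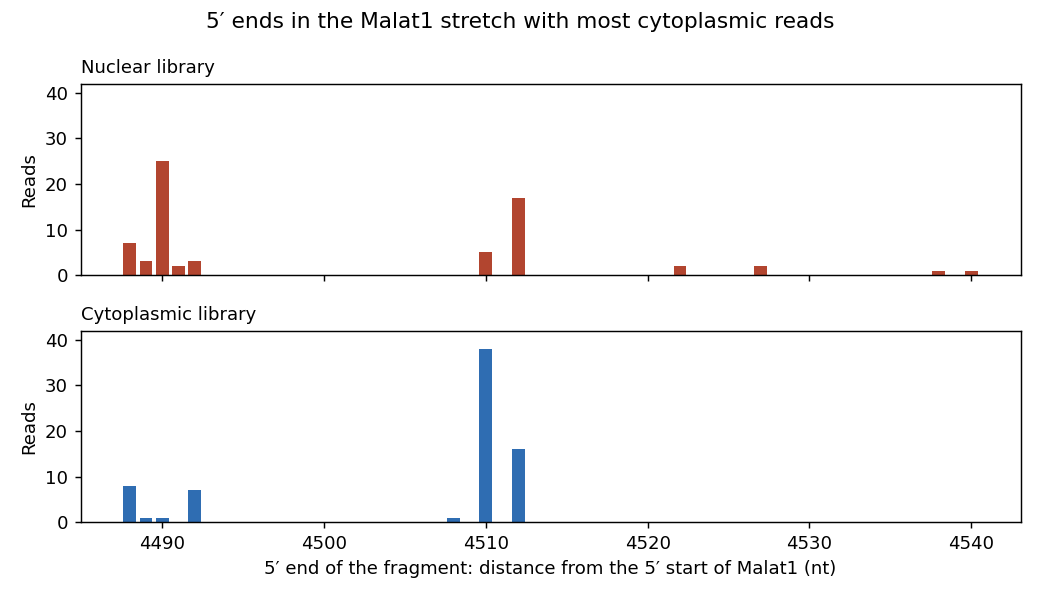
Reads (y axis) by the position of their 5′ end in Malat1 (x axis, nt from the transcript's start), nuclear library above and cytoplasmic library below. The cytoplasmic reads stack at position 4510 (5 nuclear and 38 cytoplasmic reads), and within the stretch drawn the nuclear reads are highest at position 4490 (25 nuclear reads and 1 cytoplasmic read).

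Most fragment sequences of both RNAs were seen once. Of all Malat1 sequences, 60.4% had 1 read, as did 63.1% of Neat1 sequences. Only 10 Malat1 sequences had at least 10 reads, of which 6 were at least 2-fold higher and 2 at least 2-fold lower in the nuclear library, where 47.3% of all such sequences of the table were higher and 24.2% lower. Among the 6 were 2 from the repeat near position 652. The 2 lower ones were the 20 and 21 nt forms from position 4510. A fragment at position 3443 was close to even, with 9 nuclear and 7 cytoplasmic reads for its 20 nt form and 7 and 7 for its 18 nt form. One from position 5970 had 11 nuclear and 2 cytoplasmic reads, and one from position 4737 had 10 and 0.
Malat1 position 3443, 20 nt: atggggaatgagcatgagcc
Malat1 position 5970, 20 nt: cttgttggaattgaagcatc
Malat1 position 4737, 18 nt: cgagtggggtcaggcatg

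Neat1 fragments were denser in the 5′ region, up to the end of its short isoform. The first 3172 nt, up to that annotated end, gave 487 nuclear and 21 cytoplasmic reads, or 154 against 6.62 per kb. Their ratio was 23.7 (15.3 to 38.6). These bases include a 166 nt intron of the annotated short isoform Neat1-202, with 29 nuclear and 0 cytoplasmic reads. The 17599 nt found only in the long isoform gave 791 nuclear and 64 cytoplasmic reads, or 44.9 against 3.64 per kb, and a ratio of 12.6 (9.77 to 16.5). The 5′ region thus had more reads per length than the pooled long-only region in each library, and its ratio was 1.88 times larger (1.11 to 3.28). These pooled values do not place a step at the short isoform's end. Dense nuclear windows also lay beyond it, at positions 3301 to 3400 (35 reads), 4601 to 4700 (68) and 6201 to 6300 (30). The median over all 208 Neat1 windows was 3 nuclear reads. Where the density changed was not tested. Both libraries thus held reads from the long-only region. Within it, position 5156 alone gave 2 nuclear and 8 of the 64 cytoplasmic reads, and the quotient of 1.88 was not taken without them. A single sequence, with 1 nuclear read, crossed the end of the short isoform.

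**Figure D4:**
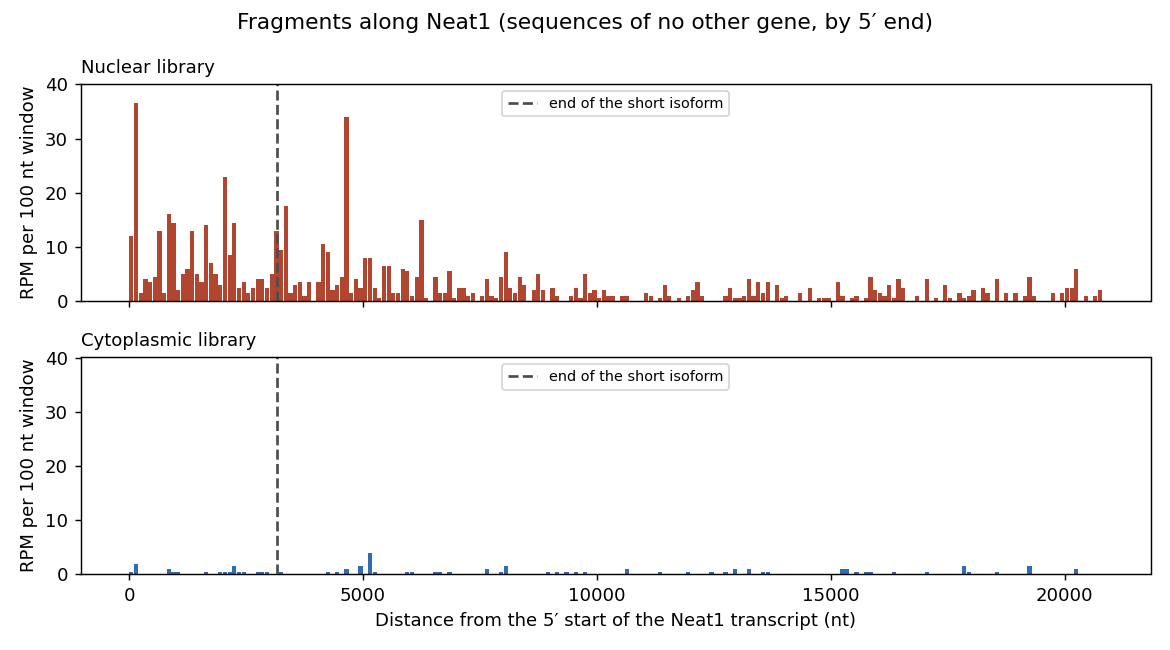
RPM per 100 nt window (y axis, same scale in both panels) by distance from the 5′ start of Neat1 (x axis), nuclear library above and cytoplasmic library below, with the end of the short isoform dashed. Nuclear reads peak at 36.5 RPM at positions 101 to 200, with positions 4601 to 4700 next (68 nuclear and 2 cytoplasmic reads), and no cytoplasmic window passes 3.92 RPM.

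Most Neat1 windows with enough reads were higher in the nuclear library. Fragments began in 165 of 208 windows in the nuclear library and in 56 in the cytoplasmic library, and covered 34.2% and 6.21% of its bases. Of 17 windows with at least 20 reads, 16 were at least 2-fold higher in the nuclear library and 0 lower, which is 94.1% higher, beside the 78.9% and 8.77% of other long non-coding RNAs. Of these the nearest to even, positions 5101 to 5200, had 16 nuclear and 8 cytoplasmic reads (ratio 2.04, 0.824 to 5.51). It also had the most cytoplasmic reads of Neat1, and 1 of its sequences, of 21 nt at position 5156, had 1 nuclear and 7 cytoplasmic reads. Since no Neat1 window had more than 8 cytoplasmic reads, a window with 20 reads could not be called lower. Windows with more cytoplasmic than nuclear reads, such as positions 17801 to 17900 (1 nuclear and 3 cytoplasmic), fell short of that minimum. Positions 101 to 200 had 73 nuclear and 4 cytoplasmic reads (ratio 18.6).
Neat1 position 5156, 21 nt: aaataggattgtcaggaagag

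The most abundant Neat1 fragment came from a tandem repeat. Its 20 nt occur at positions 4621 and 4679, in the copies printed above that lie 58 nt apart, so a read cannot be placed in one of them. With 28 nuclear and 0 cytoplasmic reads, its level was at least 9.53-fold higher when 3 reads stand for the 0. A form without its first base had 14 nuclear reads and 1 cytoplasmic read. Of the 7 Neat1 sequences with at least 10 reads, 7 were higher and 0 lower, beside the 47.3% and 24.2% above, but 4 of them were GT repeats found in many genes. The Neat1 sequence with most cytoplasmic reads, at position 5156, had 8 reads in all and so was not among the 7. The remaining one of the 7, at position 2292, had 10 nuclear and 0 cytoplasmic reads.
Neat1 position 2292, 20 nt: tgttgaatggggaagggtga

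Short RNAs annotated inside Neat1 had 13 nuclear and 0 cytoplasmic reads (Gm27533), 9 and 0 (Gm28006) and 0 and 0 (Gm27505), and the one inside Malat1 had 2 and 0 (Gm27694). No sequence crossed a junction of any annotated spliced isoform of either gene. Reads did lie inside their introns, with the most in the 1218 nt intron of Malat1-202 (241 nuclear and 33 cytoplasmic reads) and the fewest in the 629 nt intron of Neat1-204 (5 and 0).

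The fragments had scattered ends, unlike miRNAs, whose reads mostly share a 5′ end. The commonest 5′ end held 2.04% of the reads of Malat1 and 2.81% of those of Neat1. The median was 26.5% over long non-coding RNA entries and 91.7% over miRNA entries. This share can fall with length and read number, for which it was not adjusted. Their lengths were more spread than those of miRNAs, which had an SD of 1.18 nt in the nuclear and 1.17 nt in the cytoplasmic library. Malat1 fragments averaged 21.2 ± 2.28 nt in the nuclear and 20.9 ± 2.14 nt in the cytoplasmic library (SD over reads), and 38.6% and 44.9% of them had 21 to 23 nt, against 83.0% and 82.0% of miRNA reads. Neat1 fragments averaged 20.98 ± 2.21 nt in the nuclear and 21 ± 2.26 nt in the cytoplasmic library. This spread was not particular to the pair. Other long non-coding RNAs, leaving out Gm42418, had an SD of 2.27 nt in the nuclear and 2.30 nt in the cytoplasmic library. In them 34.9% and 36.8% of reads had 21 to 23 nt. For mRNAs the SD was 2.31 and 2.42 nt, and the shares were 36.1% and 35.8%.

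The 5′ ends differed between the fractions in their base. In Malat1, 36.3% of nuclear reads began with A (34.1 to 38.6), against 72.1% of cytoplasmic reads (66.7 to 77.1). In Neat1 the shares were 27.9% in the nuclear library (25.5 to 30.5) and 77.6% in the cytoplasmic library (67.3 to 86.0). The transcripts themselves contain 28.6% A (Malat1) and 22.7% A (Neat1). Cytoplasmic fragments of both RNAs thus began with A far more often than nuclear fragments did.

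The base before the 5′ end, read from the transcript, narrowed this further. In Malat1, 18.5% of nuclear reads (16.7 to 20.4) and 67.5% of cytoplasmic reads (62.0 to 72.8) began with an A that followed a pyrimidine (C or T). In Neat1 they were 15.9% of nuclear reads (13.9 to 17.99) and 68.2% of cytoplasmic reads (57.2 to 77.9). Such steps make up 11.8% of the Malat1 and 11.6% of the Neat1 sequence. The odds of this 5′ end in the nuclear relative to the cytoplasmic library were 0.109 (0.0827 to 0.144) in Malat1 and 0.0878 (0.0523 to 0.145) in Neat1.

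**Figure D5:**
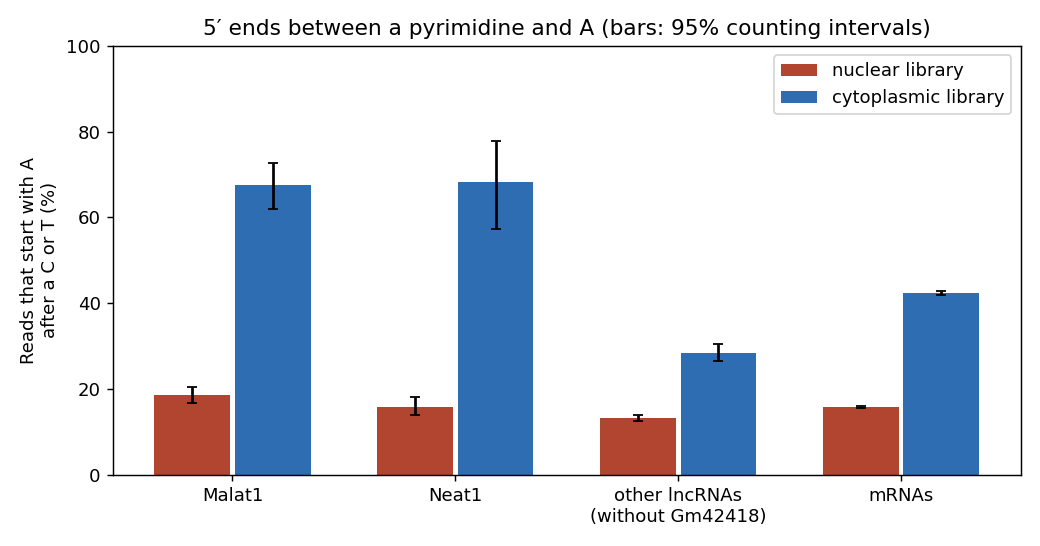
Share of reads (y axis, percent) whose 5′ end lies between a C or T and an A, for each RNA set (x axis), nuclear bars left of cytoplasmic bars, with exact 95% counting intervals. The share is 18.5% against 67.5% in Malat1 and 15.9% against 68.2% in Neat1, and the gap is narrower in other long non-coding RNAs (13.2% against 28.4%) and mRNAs (15.8% against 42.4%).

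The same direction held for other RNAs, with a smaller gap. In other long non-coding RNAs, leaving out Gm42418, which alone held 50624 nuclear and 29363 cytoplasmic reads, this 5′ end was that of 13.2% of nuclear and 28.4% of cytoplasmic reads, an odds ratio of 0.383 (0.342 to 0.429). In mRNAs the shares were 15.8% and 42.4%, an odds ratio of 0.256 (0.250 to 0.261). The intervals of Malat1 and Neat1 lie below both. The nuclear shares of the 4 sets ran between 13.2% and 18.5%, and the cytoplasmic shares between 28.4% and 68.2%.

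The ratio of either RNA accordingly differed by the first base of its fragments. Malat1 fragments that began with A had 653 nuclear and 220 cytoplasmic reads, a ratio of 3.03 (2.60 to 3.55), while those that began with G had 350 and 19, a ratio of 18.8 (11.9 to 31.6). C and T gave 12.5 and 12.2. Neat1 fragments that began with A had 357 nuclear and 66 cytoplasmic reads, a ratio of 5.52 (4.24 to 7.29). Those that began with G had 375 and 10 (ratio 38.3), with T 401 and 8 (ratio 51.2), and with C 146 and 1 (ratio 149, 26.3 to 5926).

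The difference in first base was also seen without weight on abundant fragments. With each distinct sequence counted once, 34.7% of nuclear and 62.2% of cytoplasmic Malat1 sequences began with A, and 29.4% and 75.0% of Neat1 sequences. Without positions 4501 to 4600, 35.4% of nuclear and 66.8% of cytoplasmic Malat1 reads did, an odds ratio of 0.272 (0.203 to 0.364). The 3′ ends showed a weaker difference: the last base was a pyrimidine and the next base of the transcript an A for 15.1% of nuclear and 23.6% of cytoplasmic Malat1 reads, and for 7.90% and 22.4% of Neat1 reads.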

How the data were processed

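Small RNAs of 1 nuclear and 1 cytoplasmic library were purified with a miRNA isolation kit, per the labels' protocols. CASAVA and the build mm10 (GRCm38) are named per the submitters' processing notes. The sources used here do not state adapter trimming, length limits or filters. The authors deposited RPM per distinct sequence. The columns were taken as nuclear and cytoplasmic from the last letter of their names. Whole reads were recovered from the RPM: 100% of values above 0 were whole multiples of 1 read, and 1 read was worth 0.500 RPM (nuclear) or 0.490 RPM (cytoplasmic), with a largest deviation of 0.0001 reads. These are listed reads, and the total sequenced is not known.

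All sequences were matched to GENCODE vM21 transcripts (sense strand, full length, no mismatch), which took 52.8% of nuclear and 67.8% of cytoplasmic reads. The antisense strand of Malat1 matched 118 sequences (512 nuclear and 48 cytoplasmic reads) and that of Neat1 100 (386 and 24). Of these, 0 and 1 had no sense match to any transcript. Read backwards, 0 sequences matched Malat1 and 23 matched Neat1 (112 and 2 reads), and all 23 also had a sense match. Positions count from 1 at the 5′ end of the longest transcript. The bounds of mascRNA are those of the RefSeq gene table (GRCm38.p6), used in place of a planned search for its tRNA-like fold. Sequences in over 10 long genes entered no gene entry, so gene entries held fewer reads than the members. As entries Malat1 had 1806 nuclear and 305 cytoplasmic reads, against 2094 and 328 as a member. Neat1 had 1300 and 86, against 1559 and 96. The ranks of gene entries rest on the lower counts.

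Ratios are nuclear over cytoplasmic RPM with exact (Clopper-Pearson) 95% intervals conditional on the reads of both libraries, and log2 ratios have a pseudocount of 0.5 reads, which understates changes at low counts. Quotients of ratios and odds ratios have exact conditional intervals. An item was called higher or lower when its log2 ratio reached 2-fold. Gene entries needed 50 reads, windows 20 and single sequences 10. A count of 0 was set to a floor of 3 reads per library for a fold. The count test of edgeR has no residual degrees of freedom here and could not be fitted. edgeR 4.0.16 (R 4.3.3) gave TMM factors, and Python 3.11.15, pandas 2.3.3, scipy 1.17.1 and edlib 1.3.9.post1 did the rest, after tests on simulated reads. No molecular identifiers are known, so PCR copies cannot be told from separate molecules. Members named are all those of the rule, with the most abundant sequences and the windows highest in each library. Other fragments and windows were singled out after their values were seen. Intervals of windows, 5′ ends and fragments picked for their reads do not cover that choice. The members and lists were chosen with earlier results of these data known. A planned item of the gene lists is not reported here and is left out of their counts.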

Additional observations from a re-analysis of the deposited data

How the results depend on the processing

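Direction and the 2-fold call held for Malat1 and Neat1 under every alternative run, but the size moved. The log2 ratio of Malat1, 2.70 as reported, was 2.43 with each distinct sequence counted once, 2.93 with sequences of at least 2 reads, 1.98 under TMM factors, 1.88 under the median of ratios and 3.59 when scaled to the miRNA total. It was 2.95 without positions 4501 to 4600, an alternative chosen after seeing the data. For Neat1, 4.04 as reported, the same settings gave 3.44, 4.91, 3.32, 3.22 and 4.94. The other settings (fragments of no other gene, up to 3 nt removed at the 3′ end, at least 22 nt, without the most abundant sequence, a pseudocount of 1 read, overlapping reads given to mascRNA) gave 2.59 to 2.77 for Malat1 and, leaving out the last, 3.93 to 4.04 for Neat1. The share of nuclear Malat1 reads in mascRNA was 0 except that counting the read over the RNase P site gave 0.0478%. The ratio of mascRNA has no value under any setting, since both libraries were at or under the floor. Gene entries lower in the nuclear library numbered 81 as reported, 233 under TMM factors, 254 under the median of ratios and 19 scaled to the miRNA total. With no minimum of reads 8341 of 14218 entries were higher and 1753 lower, and with a minimum of 20 reads 1244 and 137 of 2527. No paired analysis was possible because each group has 1 library. Depth limits the cytoplasmic side most, with 96 Neat1 reads in all, and a library cannot be left out where a group has only 1.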
